A study of Mus musculus with 2 samples.

Results

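The circadian clock genes of epididymal fat comprised 10 genes, Clock, Npas2, Per1, Per2, Per3, Cry1, Cry2, Nr1d1, Nr1d2 and Dbp. They were chosen by gene name, though with earlier results of these data known. Each was measured by 1 probe set of the Clariom S Mouse Array, so that they were 10 of the 19505 gene symbols and 10 of the 22206 probe sets kept. The tissue came from male KO_A12 mice, which are A/J-12SM mice with a homozygous CRISPR/Cas9 deletion in the first exon of Iah1, and from male WT_A12 mice, which are A/J-12SM mice without it. The A/J-12SM strain carries chromosome 12 of SM/J mice on the A/J background, so both groups share that chromosome. All mice received a high-fat diet for 12 weeks from 6 weeks of age and were killed between 13:00 and 14:00 after 4 h without food. By the study's methods light lasted from 8:00 to 20:00, so tissue was collected 5 to 6 h after light on. RNA of 3 mice was pooled for each genotype and hybridized to 1 array. The KO_A12 line was bred from homozygous parents, so genotype, breeding line and pool cannot be told apart, and no difference below has a replicate check, an error or a p-value.

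The mammalian clock is a feedback loop of transcription factors that runs in nearly every cell. CLOCK, or its paralog NPAS2, pairs with BMAL1 (the gene is named Arntl in the array annotation) and activates genes with E-box sequences, among them the Per, Cry, Nr1d and Dbp genes. PER and CRY proteins return to block this activation, while REV-ERBα and REV-ERBβ, the products of Nr1d1 and Nr1d2, repress Arntl, Npas2, Clock and Cry1 through response elements they share with the ROR activators. DBP binds D-box sequences, which are also found in Per genes. In mouse peripheral tissues, white fat included, the mRNAs of Arntl, Npas2 and Clock are highest around the end of the night, those of Nr1d1, Dbp and Per3 during the day and those of Per1 and Per2 around dusk, while Cry1 follows in the night and Cry2 varies little. Because these mRNAs swing over the day in different phases, their levels depend on the hour of collection.

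The promoters of several members hold the elements named above. RefSeq windows (GRCm38.p6) from 250 bases before to 50 bases after a start site were used for 9 of the 10 members, all but Per2, with 12 windows in all. Shown 5′ to 3′ are those that hold a clock element of the activating or D-box arm in the genes that the results turn on, and that of Ciart, a clock repressor gene described further on. Capitals mark the E-box CACGTG, the E′-box CACGTT, the D-box TTATGTAA and AGGTCA, the core of the element bound by REV-ERB and ROR, each searched on both strands, with no overlaps between them.
Per1 (chr11:69098699-69098998, plus strand): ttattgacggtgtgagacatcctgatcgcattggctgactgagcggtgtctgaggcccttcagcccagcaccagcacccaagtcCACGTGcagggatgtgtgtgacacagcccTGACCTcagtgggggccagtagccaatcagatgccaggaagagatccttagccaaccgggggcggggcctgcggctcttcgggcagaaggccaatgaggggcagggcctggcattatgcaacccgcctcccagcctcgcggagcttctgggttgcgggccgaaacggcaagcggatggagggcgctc
Per3 (chr4:151044616-151044915, minus strand): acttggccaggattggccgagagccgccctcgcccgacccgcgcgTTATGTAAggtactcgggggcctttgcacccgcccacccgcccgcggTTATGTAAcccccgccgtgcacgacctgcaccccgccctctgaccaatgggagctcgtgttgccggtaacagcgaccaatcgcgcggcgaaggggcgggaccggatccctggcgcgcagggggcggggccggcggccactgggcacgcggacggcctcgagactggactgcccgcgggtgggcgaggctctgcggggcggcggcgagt
Cry1 (chr10:85185005-85185304, minus strand): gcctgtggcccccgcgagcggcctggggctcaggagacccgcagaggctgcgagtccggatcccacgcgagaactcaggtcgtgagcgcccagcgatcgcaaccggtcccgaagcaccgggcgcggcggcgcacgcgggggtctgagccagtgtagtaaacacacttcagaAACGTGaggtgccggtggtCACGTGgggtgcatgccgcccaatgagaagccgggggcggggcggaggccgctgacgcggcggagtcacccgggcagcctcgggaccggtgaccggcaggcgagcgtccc
Nr1d1 (chr11:98775328-98775627, minus strand): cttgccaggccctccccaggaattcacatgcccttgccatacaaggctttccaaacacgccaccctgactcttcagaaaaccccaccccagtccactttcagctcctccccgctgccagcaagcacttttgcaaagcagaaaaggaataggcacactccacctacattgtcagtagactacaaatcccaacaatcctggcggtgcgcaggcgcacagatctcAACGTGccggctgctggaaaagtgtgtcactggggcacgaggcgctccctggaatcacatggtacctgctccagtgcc
Ciart (chr3:95882179-95882478, minus strand): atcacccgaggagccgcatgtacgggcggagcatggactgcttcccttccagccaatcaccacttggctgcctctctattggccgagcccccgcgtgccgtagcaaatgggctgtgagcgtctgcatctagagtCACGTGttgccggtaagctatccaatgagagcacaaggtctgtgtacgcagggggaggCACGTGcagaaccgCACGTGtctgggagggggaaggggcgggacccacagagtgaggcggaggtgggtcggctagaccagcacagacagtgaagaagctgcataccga

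An E-box stood in 1 of the 2 windows of Per1, 166 bases before the start site, and in that of Cry1, 60 bases before it. Of all 32851 promoter windows, 7.15% held at least 1. The E′-box, found in 4.68% of all windows, was present in Cry1, Cry2 and Nr1d1, where it began 28 bases before the start site. Per3 carried the D-box at 2 places, 205 and 158 bases upstream, and 0.938% of all windows held it. The core AGGTCA was found in 1 window each of Per1, Clock and Nr1d2, against 16.3% of all windows. No match to these 4 sequences was found in the windows of Npas2 and Dbp, which says only that these letters are not there. A match is a description of the sequence, and binding was not measured here.

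In the KO_A12 pool each of the 10 clock genes had a signal within 0.45 of that in the WT_A12 pool on the log2 scale. A signal is the log2 brightness of a probe set after the authors' normalization, and a difference is the KO_A12 signal minus the WT_A12 signal. Of the members, 4 were higher and 6 lower in the KO_A12 pool, with differences between -0.45 for Npas2 and 0.39 for Per2, though Per3 turned from slightly lower to slightly higher when the signals were rescaled by quantile normalization or by a lowess trend. Among the 9841 probe sets with a signal over 7 on both arrays, where 9 of the 10 members lie, 44.2% were higher and 55.7% lower. None of the 10 members differed by 2-fold, a size passed by 2.81% of all probe sets and by 1.71% of those over 7 on both arrays. None differed by 1.5-fold either, which 13.7% of all probe sets and 9.82% of those over 7 on both arrays passed. Their median difference was -0.02, against 0.000285 for all probe sets and -0.04 for those over 7 on both arrays. A difference of over 0.25 in either direction was found for 4 members, Npas2, Per2, Nr1d1 and Per1, and 40.8% of the probe sets over 7 on both arrays exceeded it. Every member had a higher signal on each array than the median of the background controls, which was 5.61 on the KO_A12 array and 5.75 on the WT_A12 array. The median of all probe sets, 6.51 on the KO_A12 array and 6.50 on the WT_A12 array, was above these values too.

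**Figure D1:**
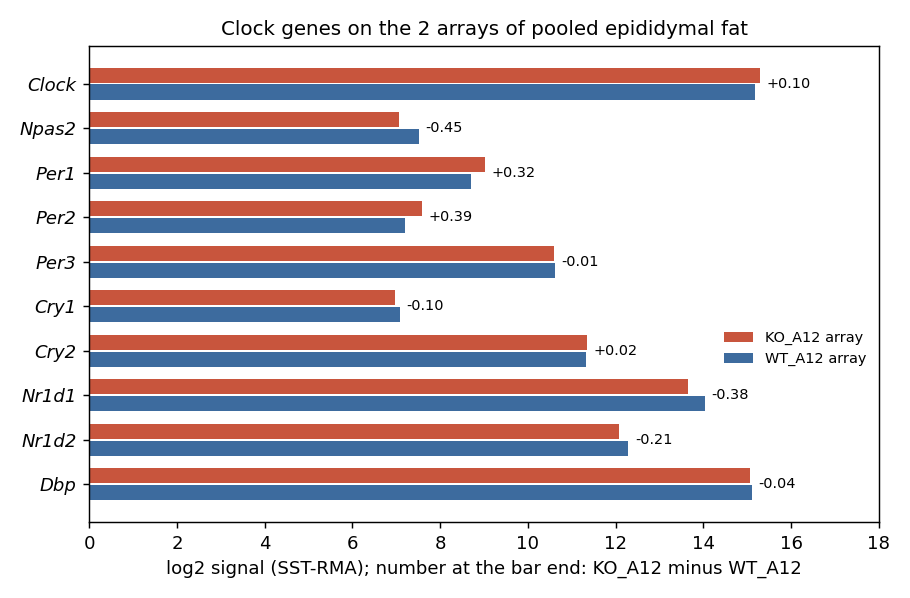
Log2 signals of the 10 clock genes on the KO_A12 array (red, upper bar) and the WT_A12 array (blue, lower bar), 1 array of pooled RNA per genotype, with the difference printed at the bar end. The bars of each gene end within 0.45 of each other, and lengths of different genes cannot be compared because they come from different probes.

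The activators differed from each other in direction. Clock, the DNA-binding partner of BMAL1 with acetyltransferase activity, had a log2 signal of 15.28 in the KO_A12 pool and 15.18 in the WT_A12 pool, a difference of 0.10. Npas2, its paralog, had 7.07 in the KO_A12 pool and 7.51 in the WT_A12 pool, and this difference of -0.45, or 0.734 times the WT_A12 signal, was the lowest of the members. Differences at least as large in size were found for 17.9% of the probe sets over 7 on both arrays. Arntl, the partner of both and not a member, had 8.55 in the KO_A12 pool and 8.88 in the WT_A12 pool, a difference of -0.33. Npas2 and Arntl were thus lower and Clock slightly higher in the KO_A12 pool.

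Among the Period genes, which encode the rate-limiting repressors of the loop, Per1 and Per2 were higher in the KO_A12 pool, while the signals of Per3 were nearly equal. Per1, which also responds quickly to glucocorticoids and to cAMP, had a log2 signal of 9.03 in the KO_A12 pool and 8.70 in the WT_A12 pool, a difference of 0.32. For Per2 the signals were 7.59 in the KO_A12 pool and 7.20 in the WT_A12 pool, a difference of 0.39 or 1.31 times the WT_A12 signal. Per3, whose window holds the pair of D-boxes shown above, had 10.60 in the KO_A12 pool and 10.61 in the WT_A12 pool, a difference of -0.0084. Of the probe sets over 7 on both arrays, 30.5% differed by at least as much as Per1 and 22.5% by at least as much as Per2.

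The Cryptochrome genes, which encode the direct inhibitors of CLOCK and BMAL1, differed little between the pools. Cry1 had a log2 signal of 6.98 in the KO_A12 pool and 7.08 in the WT_A12 pool, a difference of -0.10, and it was the only member that did not exceed 7 on both arrays. Cry2 had 11.35 in the KO_A12 pool and 11.33 in the WT_A12 pool, a difference of 0.02. Each was thus within 0.10 of its WT_A12 signal.

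Both REV-ERB genes were lower in the KO_A12 pool. Nr1d1, which encodes the heme-binding repressor REV-ERBα and is also induced during adipocyte differentiation, had a log2 signal of 13.66 in the KO_A12 pool and 14.03 in the WT_A12 pool, a difference of -0.38 or 0.770 times the WT_A12 signal. Of the probe sets over 7 on both arrays, 24.0% differed by at least as much. Nr1d2, which encodes REV-ERBβ, had 12.08 in the KO_A12 pool and 12.29 in the WT_A12 pool, a difference of -0.21. Of the genes on which these repressors act, Arntl, Npas2 and Cry1 were at -0.33, -0.45 and -0.10 and Clock was at 0.10.

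Dbp, the output factor of the loop and among the genes with the widest daily swing in mouse tissues, had nearly equal signals. Its log2 signal was 15.06 in the KO_A12 pool and 15.10 in the WT_A12 pool, a difference of -0.04. A difference of this size or more was found for 88.9% of the probe sets over 7 on both arrays.

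The spread of differences varied with signal, being narrower at the lowest and highest signals than between them, and each member was therefore set against the 500 probe sets nearest to it in mean signal. All 10 lay inside the central 95% of these neighbours, which for Nr1d1 ran from -0.58 to 0.50 and for Npas2 from -0.86 to 0.87. Nr1d1 was closest to the edge of its range. Among all probe sets over 7 on both arrays the central 95% ran from -0.83 to 0.64.

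**Figure D2:**
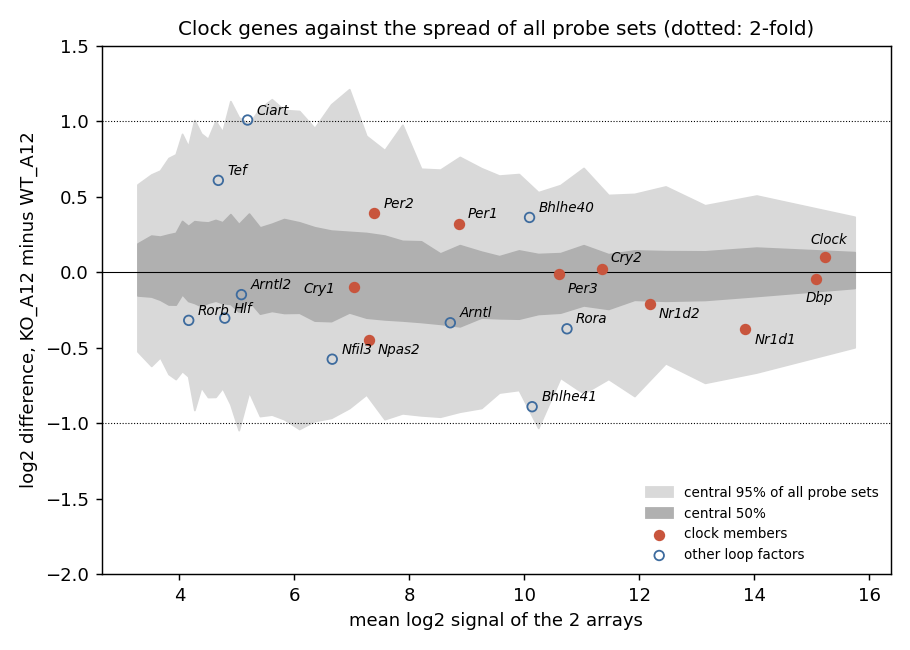
Difference, KO_A12 minus WT_A12, against mean log2 signal for the 10 clock members (filled red) and 10 other transcription factors of the loop (open blue), over the central 95% and 50% of all 22206 probe sets in 40 bins of signal. All members lie inside the light band and between -0.45 and 0.39. Ciart at 1.01, with signals near background, lies just above the band, and Bhlhe41 at -0.89 lies just inside its lower edge.

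The members that peak in the day or around dusk were compared with those that peak in the night or around dawn. Per1, Per2, Per3, Nr1d1, Nr1d2 and Dbp had a mean difference of 0.01, and Clock, Npas2 and Cry1 of -0.15, so that the contrast between them was 0.16. It was 0.07 with medians in place of means and 0.32 with 6 further clock genes. Tef, Hlf, Ciart and Bhlhe41 were added to the day group for this, and Arntl and Nfil3 to the night group. Tef, Hlf, Ciart and Nfil3 did not exceed 7 on either array, so the size of their differences, and of this contrast, is uncertain. Within the day group the differences had both signs, since Per1 and Per2, at 0.32 and 0.39, were higher and Nr1d1 and Nr1d2, at -0.38 and -0.21, were lower. A difference in collection time between the pools was not tested, because each pool is 1 sample. Differences between the 3 mice of a pool are averaged in it and could not be seen.

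Among the other transcription factors of the loop, some differences were larger than those of the members. Of 10 measured, 3 were higher and 7 lower in the KO_A12 pool, with a median difference of -0.31. Of these, 3 passed 1.5-fold, as did 13.7% of all probe sets, with 2 higher and 1 lower, but 1 higher and 2 lower passed under quantile normalization and 1 each way after lowess. Bhlhe41, which encodes DEC2, a repressor at E-boxes, had a log2 signal of 9.69 in the KO_A12 pool and 10.58 in the WT_A12 pool, a difference of -0.89 that 4.29% of all probe sets reached in size. Its paralog Bhlhe40, which encodes DEC1, had 10.27 in the KO_A12 pool and 9.91 in the WT_A12 pool, a difference of 0.36. These paralogs thus differed in direction. Rora, an activator at the elements that REV-ERB occupies, had 10.56 in the KO_A12 pool and 10.93 in the WT_A12 pool on its brightest probe set, a difference of -0.37, but 0.17 and 0.13 on the other 2, so its direction is not settled.

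Weaker factors were named after their values were seen. Ciart, a repressor of CLOCK and BMAL1 with 3 E-boxes in the window printed above, had a log2 signal of 5.69 in the KO_A12 pool and 4.68 in the WT_A12 pool. This difference of 1.01 was the only 2-fold difference in the 92 pathway genes, where 2.81% of all probe sets passed 2-fold. Of these genes 46 were higher and 46 lower, and of all probe sets 11109 were higher and 11065 lower. The difference of Ciart was under 2-fold after quantile normalization or lowess, and the signals of Ciart lie close to or under the medians of the background controls. Tef, a D-box factor like DBP, had 4.98 in the KO_A12 pool and 4.37 in the WT_A12 pool, also near background. Nfil3, a repressor at D-boxes, had 6.37 in the KO_A12 pool and 6.95 in the WT_A12 pool, a difference of -0.58. With these and other factors near background, the size of a difference is uncertain.

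None of the enzymes measured that set the pace of the loop differed by 1.5-fold. This size was passed by 13.7% of all probe sets and 9.82% of those over 7 on both arrays. The lists are short, and whether a count of none departs from those shares was not tested. Of 12 kinases and phosphatases that act on clock proteins, 4 were higher and 8 lower in the KO_A12 pool, or 6 and 6 after lowess, with a median difference of -0.01. Csnk1d, a casein kinase that marks PER proteins for degradation, had a log2 signal of 13.94 on each array, and its relative Csnk1e had 11.38 in the KO_A12 pool and 11.56 in the WT_A12 pool. Ppp1ca, a catalytic subunit of protein phosphatase 1, had the largest difference of this group in size, 0.36. Among 11 genes of clock protein degradation, 4 were higher and 7 lower, again none by 1.5-fold, with -0.34 for Btrc, the ubiquitin ligase subunit that recognises PER, and -0.44 for Fbxw7, which targets REV-ERBα.

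Of 8 measured partners of the PER, CRY or REV-ERB repressor complexes, 6 were higher and 2 lower in the KO_A12 pool, with a median of 0.08. Hdac3, the histone deacetylase that REV-ERB recruits, had a log2 signal of 12.71 in the KO_A12 pool and 12.05 in the WT_A12 pool, a difference of 0.65. Sirt1, a deacetylase that binds CLOCK, had 11.53 in the KO_A12 pool and 11.02 in the WT_A12 pool, a difference of 0.51. Hdac3 was the only gene of this group more than 1.5-fold higher, which 6.78% of all probe sets were. Timeless, a replication fork protein that binds PER and CRY and was named after its values were seen, was more than 1.5-fold lower, with 4.63 in the KO_A12 pool and 5.22 in the WT_A12 pool, near background.

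Clock output genes, chosen for strong rhythms in many mouse tissues or for a known clock element, had a median difference of 0.11. Of 22 measured, 13 were higher and 9 lower, and 3 passed 1.5-fold, a share close to the 13.7% of all probe sets. Ppara, the fatty acid sensor of oxidative tissues, had a log2 signal of 7.67 in the KO_A12 pool and 6.92 in the WT_A12 pool, and Lonrf3 had 6.43 in the KO_A12 pool and 7.26 in the WT_A12 pool. Nampt, the rate-limiting enzyme of NAD salvage under an E-box, had 11.42 in the KO_A12 pool and 11.19 in the WT_A12 pool, and Noct, the rhythmic gene of nocturnin, had 9.08 in the KO_A12 pool and 9.48 in the WT_A12 pool. The outputs thus had no common direction.

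Markers of other tissues differed between the pools, liver among them, where clock genes are also expressed. All 18 liver markers were higher in the KO_A12 pool, 16 of them by 2-fold, as were 1.46% of all probe sets, with median log2 signals of 8.29 in the KO_A12 pool and 5.06 in the WT_A12 pool. Summed over the list, the liver signal was 17.71 in the KO_A12 pool and 16.44 in the WT_A12 pool on the log2 scale. Trf and Cyp2e1, also expressed in fat, made up 63.6% of this sum in the KO_A12 pool and 99.0% in the WT_A12 pool, though signals of different probes are not strictly additive. The sum of the other 16 was 16.26 in the KO_A12 pool and 9.75 in the WT_A12 pool. The 8 seminal vesicle markers were all at least 3.06 higher. All 11 macrophage markers were lower, 9 of them by 1.5-fold, with a median of -0.87. All 10 testis germ cell markers were lower as well, 8 of them by 1.5-fold, with a median of -1.27. Lower by 1.5-fold were 6.96% of all probe sets. The testis markers had median log2 signals of 4.89 in the KO_A12 pool and 6.47 in the WT_A12 pool, and 2 exceeded 7 on both arrays. Their KO_A12 median is under that of the background controls, 5.61, so the size of these differences is uncertain. All 8 fibroblast and adipose progenitor markers were lower too, 4 of them by 1.5-fold (3 after quantile normalization or lowess), as were 6.96% of all probe sets, with a median of -0.47, while 9 of 10 endothelial markers were higher, 2 of them by 1.5-fold, against 6.78% of all probe sets, with a median of 0.28. In such a pool fewer cells of a type and less RNA per cell cannot be told apart. The part of these shifts in the clock gene differences was not tested.

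White adipocyte markers, which define the labelled tissue, had high signals in both pools. Adiponectin (Adipoq) had a log2 signal of 18.31 in the KO_A12 pool and 18.22 in the WT_A12 pool. None of 13 white adipocyte markers differed by 1.5-fold, with differences from -0.09 to 0.34, and 9.82% of the probe sets over 7 on both arrays did. Iah1, the targeted gene, had 8.35 in the KO_A12 pool and 9.52 in the WT_A12 pool, a difference of -1.17, but where its probes lie relative to the deletion is not known here. The study itself detected neither Iah1 mRNA, by quantitative PCR, nor its protein, by Western blot, in KO_A12 mice.

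**Figure D3:**
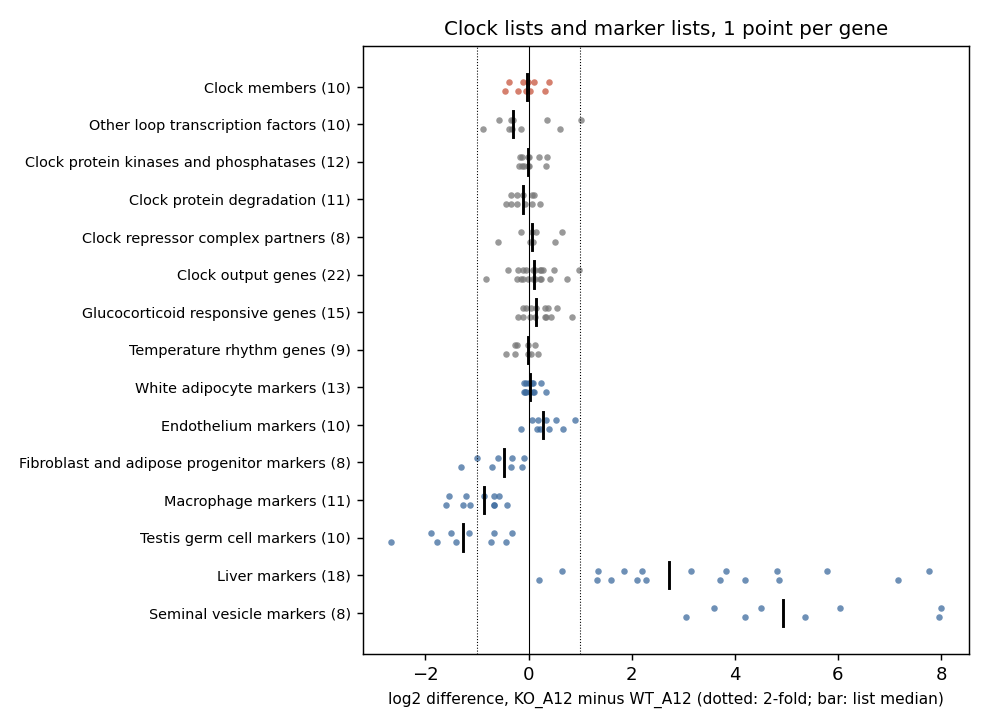
Differences, KO_A12 minus WT_A12, of each measured gene in the clock members (red), related clock and rhythm lists (grey) and marker lists of cell types and organs (blue), with the number of genes in brackets and the list median as a bar. The clock members centre on 0 (median -0.02), while liver markers (median 2.72) and seminal vesicle markers (median 4.94) lie to the right and macrophage (median -0.87) and testis germ cell markers (median -1.27) to the left.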

How the data were processed

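Epididymal fat RNA of 3 mice per genotype was pooled and 100 ng was labelled for each Clariom S Mouse Array. The authors normalized the raw data to log2 signals with SST-RMA (written STT-RMA in the methods), which corrects background, scales between arrays and summarizes probes, and these deposited signals were not rescaled. The submitters' processing notes list RMA alone. A genome build is not given in the sources used here. In the labels the method of killing is decapitation and in the study's methods cervical dislocation.

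Of 28846 rows, 6640 control rows were left out and 22206 probe sets kept. The annotation of the platform names 1 gene for 19572 of them, and all 10 members matched RefSeq by Entrez ID. A gene with several probe sets entered by the one of highest mean signal. With 1 array per genotype no test was possible, and the number of arrays limits the precision. Each difference is KO_A12 minus WT_A12. Sizes of 2-fold and 1.5-fold, with no signal cutoff, were counted beside all probe sets. For the text, all members were named. From each other pathway list the 4 genes with the largest differences in size among those over 7 on at least 1 array were considered, and not all of them were named. Others were named for their role or after their values were seen. Members and lists were chosen with earlier results of these data known. The alternatives were 3 scalings, other rules for probe sets and signal, and other averages. The code was tested on simulated data. Computation was in Python 3.11.15 (pandas 2.3.3, numpy 2.4.6, statsmodels 0.14.6, scipy 1.17.1), with plots in matplotlib 3.10.9.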

Additional observations from a re-analysis of the deposited data

How the results depend on the processing

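No paired analysis was possible because there is a single array for KO_A12 and for WT_A12. The scalings were median centring, quantile normalization and removal of a lowess trend (span 0.3), and all started from signals the authors had already normalized. Under them no member passed 1.5-fold, and no member moved by more than 0.08. All 30 values of the members moved less than the robust SD of the differences of the 500 probe sets nearest in signal. For most members this SD was larger than the difference itself, so staying within it does not show that a difference held. The sign turned only for Per3, which was at 0.07 under quantile normalization and 0.05 after lowess. The members' median ran close to 0 throughout, at -0.03 after median centring and 0.0021 under quantile normalization and under lowess. The contrast of day and night members was 0.16 as deposited and 0.19 with members over 7 on both arrays. It was 0.07 with medians and 0.32 with 6 further clock genes. Each lay within 0.22 of 0.16, the spread that like-signal differences give it. The contrast is itself smaller than this spread, so lying within it does not show that the contrast held. Each gene list kept the sign of its median under the 3 scalings except the clock members and the day group among them. These comparisons cannot undo the authors' scaling, and with 1 array per genotype a difference of the sizes found here cannot be separated from variation between arrays or pools.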

Other observations

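Glucocorticoid responsive genes, whose hormone has a daily rhythm and rises with handling, had differences from -0.20 for Ddit4 to 0.84 for Fkbp5. Of 15 measured, 11 were higher and 4 lower in the KO_A12 pool, with a median difference of 0.15, where 44.2% of the probe sets over 7 on both arrays were higher. The 1 gene past 1.5-fold was Fkbp5, a chaperone of the glucocorticoid receptor, with a log2 signal of 12.32 in the KO_A12 pool and 11.48 in the WT_A12 pool. Of all probe sets 13.7% passed this size, as did 9.82% of those over 7 on both arrays. Cdkn1a, a cell cycle inhibitor, was at 0.56 and Dusp1, a phosphatase of MAP kinases, at 0.38, while Tsc22d3, the glucocorticoid-induced leucine zipper gene, was at -0.11, Sgk1 at 0.03 and Klf9 at -0.04. Per1, which is in this list too, was at 0.32. Fkbp5, Cdkn1a and Dusp1 lay above the central 95% of the 500 probe sets nearest to each in signal, and the other 12 lay inside theirs.

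Genes that follow body temperature had a median difference of -0.0055 over 9 measured, of which 3 were higher and 6 lower in the KO_A12 pool. None passed 1.5-fold, which 13.7% of all probe sets did. Cirbp, a cold-inducible RNA-binding protein, had a log2 signal of 9.56 in the KO_A12 pool and 9.79 in the WT_A12 pool, and Rbm3, its relative, had 16.61 in the KO_A12 pool and 16.57 in the WT_A12 pool. Hsph1, a heat shock protein, was at -0.44. Hspa1a and Hspa1b, which are nearly identical in sequence, had the same difference of -0.26 at different signals and cannot be told apart with certainty.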
